A study of Mus musculus with 24 samples.

Results

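Wild-type (WT) mouse embryonic stem cells were compared after 3 days of differentiation with the same cells before differentiation, in 3 RNA-seq libraries of each day (6 of the 24 libraries of the series). Mouse embryonic stem cells derive from the inner cell mass of the blastocyst. In medium with leukaemia inhibitory factor (LIF) and inhibitors of GSK3 and MEK they are held in a naive state, in which transcription factors such as Nanog, Esrrb, Tfcp2l1 and the Klf family keep self-renewal going. When these signals are taken away, the cells pass through a formative or primed state like that of the epiblast of the implanting embryo, with Otx2, Pou3f1 and the de novo DNA methyltransferases, before they take on germ layer fates.

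The WT cells carried no edit according to the labels and came from a commercial supplier. Per the labels' protocols they were grown with serum, LIF, the GSK3 inhibitor CHIR99021 and the MEK inhibitor PD0325901, and every sample of the series carries the same treatment label, differentiation, day 0 included. The sources used here do not give the medium used for differentiation or say whether LIF and the inhibitors were taken away. The other libraries of the series are WT cells on days 6 and 9 and Atf3 knockout (KO) cells on days 0, 3, 6 and 9, with 3 libraries in each group. Separate cultures are not stated for the 3 libraries of a group, and the p-values therefore measure a spread between libraries that may be technical. The labels also give each day of a genotype its own batch, so batch and day cannot be told apart.

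Genes with an FPKM (fragments per kilobase of gene, scaled by library) of at least 1 in at least 3 of the 6 libraries were compared, 12410 of the 53465 in the table. A log2 fold change is the day 3 mean minus the day 0 mean on the log2(FPKM + 1) scale, which understates the change of genes with low levels. A gene is said to have risen or fallen where the Benjamini-Hochberg adjusted p of limma, a linear model that shares information on the spread between genes, was under 0.05.

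Markers of cell states were read first against the labels. Summed over 8 naive markers, the level was 1102, 1145 and 1191 FPKM in the 3 day 0 libraries and 110, 91.1 and 73.9 FPKM on day 3. Summed over 6 markers of the formative or primed epiblast, it was 38.1, 29.8 and 30.01 FPKM on day 0 and 206, 454 and 256 FPKM on day 3. Most of this day 3 sum was Dnmt3b alone, at 189, 412 and 223 FPKM. Of the other markers, Pou3f1, Otx2 and Sox3 rose, Fgf5 was not tested, and Foxd3 fell. Both sums separated the days without overlap, the naive one downward and the formative one upward. In contrast, 4 markers of any pluripotent state summed to 1038, 841 and 842 FPKM on day 0 and still to 492, 705 and 580 FPKM on day 3. Markers of later fates were low on both days. The 4 neural ectoderm markers were each under 1 FPKM in all 6 libraries and summed to at most 1.56 FPKM, the 5 primitive streak markers summed to at most 6.74 FPKM, and the 5 mesoderm markers to at most 5.17 FPKM. The 5 extraembryonic endoderm markers summed to 2.09, 2.62 and 2.47 FPKM on day 0 and to 8.22, 15.3 and 13.8 FPKM on day 3. The 5 trophoblast markers summed to at most 2.78 FPKM, with Elf5 at 0 in all day 3 libraries, the 6 feeder fibroblast markers to between 5.14 and 12.5 FPKM, and all 4 markers of 2-cell-like cells were under 1 FPKM throughout. In bulk RNA, fewer cells of a type and less RNA per cell cannot be told apart.

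Depth, as whole reads recovered from the FPKM values, was 12969959 to 15667529 reads per library. In 3 rRNA-type genes lay 32.8%, 29.7% and 25.7% of the reads on day 0 and 15.3%, 33.0% and 35.2% on day 3, lowest in day 3 replicate 1. Pearson correlations of log2(FPKM + 1) across the genes tested were 0.974 to 0.989 between day 0 libraries, 0.956 to 0.963 between day 3 libraries and 0.853 to 0.906 between days. Day 3 replicate 1 stood apart from the other day 3 libraries in a set of genes plotted near the end.

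Of the 12410 genes, 3624 (29.2%) passed the test. A total of 1477 (11.9%) rose and 2147 (17.3%) fell, and the median log2 fold change of all genes tested was -0.08. The change was at least 1 on the log2 scale for 1662 genes (13.4%), of which 771 (6.21%) rose and 891 (7.18%) fell. The 3 values of each day did not overlap for 5814 genes (46.8%). These shares are the background against which the lists below are to be read. Each day 3 library showed the step: over the genes that rose, the median difference from the day 0 mean was 1.04, 1.01 and 1.05 on the log2 scale in replicates 1, 2 and 3, and over the genes that fell it was -0.95, -0.78 and -1.04. By gene class, 40.0% of 220 long intergenic non-coding RNAs passed (30 rose, 58 fell), against 30.9% of 10331 protein-coding genes and 8.59% of 524 processed pseudogenes. A total of 1260 genes reached 1 FPKM in exactly 3 libraries, 591 of them in all day 3 and no day 0 library and 358 in all day 0 and no day 3 library. Such genes passed the filter only through the day on which they were higher.

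Sequences upstream of 4 genes are shown: Pim2, which rose most, and Zfp42, Nanog and Esrrb, which belong to the naive list and fell. Nanog was chosen after its values were seen. The sites were searched because the octamer, the site type bound by Oct4, the protein of Pou5f1, is a known element of such promoters. Promoters are from RefSeq on GRCm38.p6. The 250 bases before each start site were searched on both strands, and capitals mark the match. The motifs were the octamer ATTTGCAT, the paired octamer and SOX site and the STAT-type site TTCNNNGAA.
Pim2, chrX:7878079-7878215, plus strand: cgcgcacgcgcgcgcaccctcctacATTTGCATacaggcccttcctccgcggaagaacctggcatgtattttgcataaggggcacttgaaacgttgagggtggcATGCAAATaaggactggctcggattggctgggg
Zfp42, chr8:43307163-43307220, minus strand: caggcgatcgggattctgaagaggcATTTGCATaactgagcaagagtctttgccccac
Nanog, chr6:122707389-122707452, plus strand: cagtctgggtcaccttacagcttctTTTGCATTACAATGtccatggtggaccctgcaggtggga
Esrrb, chr12:86360914-86360972, plus strand: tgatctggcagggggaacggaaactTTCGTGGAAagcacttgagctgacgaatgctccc

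Pim2 held 2 octamers between 202 and 116 bases before its start, which 0.0974% of the 32851 promoters in the RefSeq table did. At least 1 octamer was found in 1.601% of promoters, among them Zfp42 and Pim2, a gene that fell and a gene that rose. The paired site was found in 2 promoters, both of Nanog, and the STAT-type site in 7.02% of promoters. Of 111 genes named by the rules of this comparison and held in the table, 8 had an octamer (Dll1, Egln3, Gadd45g, Pim2, Spp1, Srf, Zfp42 and Srgn). Genes on chromosome 18 were left out of the 111. A STAT-type site was found in 6 of the 111. A gene can have more than 1 promoter in the table, so these counts of genes and the shares of promoters are in unlike units. A match describes the letters in this window and not binding.

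Naive transcription factors fell together. Of 17 tested, 13 fell, and the median log2 fold change was -2.58. In the day 0 libraries Tfcp2l1 (ENSMUSG00000026380, chr1:118627945-118685168 in mm10), a factor that keeps self-renewal going downstream of LIF, stood at 83.2, 88.8 and 89.7 FPKM, against 2.99, 2.02 and 2.58 FPKM on day 3. Its log2 fold change was -4.65 (SE 0.23, limma adjusted p = 8.1e-12), and the day 0 mean was 34.5 times the day 3 mean. Esrrb, an orphan nuclear receptor of the naive network, went from 214, 168 and 168 FPKM to 8.68, 10.9 and 8.26 FPKM, a change of -4.16 (limma adjusted p = 1.2e-08). The days lay far apart for both genes, with little spread within a day.

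Zfp42 (Rex1), a zinc finger gene widely used as a naive reporter, was measured at 191, 281 and 304 FPKM on day 0 and at 12.1, 10.2 and 11.2 FPKM on day 3, a change of -4.39 (SE 0.36, limma adjusted p = 7.4e-09). Nanog, a homeobox factor, gave 272, 331 and 333 FPKM before and 53.7, 18.2 and 17.9 FPKM after, a change of -3.52 (SE 0.46, limma adjusted p = 4.95e-06). Its day 3 replicate 1 kept the highest Nanog level of that day, still below every day 0 library. Klf4 went from 67.1, 77.1 and 74.8 FPKM to 2.72, 8.02 and 7.55 FPKM, and Klf2 from 211, 138 and 160 FPKM to 27.1, 37.8 and 19.6 FPKM. These Krüppel-like factors act with Nanog and Esrrb in the naive network, and their log2 fold changes were -3.48 and -2.58. Klf5, the third of the family in the list, fell by 1.79 on the log2 scale (limma adjusted p = 0.00646), with 46.0, 53.3 and 48.0 FPKM on day 0 and 4.72, 22.1 and 21.8 FPKM on day 3. Without day 3 replicate 1, its change was -1.12 and no longer passed (limma adjusted p = 0.06).

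Prdm14, a repressor that guards against methylation and differentiation signals, fell by 3.72 on the log2 scale. Tbx3 fell by 3.56, Nr5a2 by 2.55, Nr0b1 by 2.53 and Mitf by 1.65. Gbx2, Sall4 and Zscan10 did not pass, with changes of -0.74, -0.49 and -0.05, and the ranges of both days overlapped for each. The sign for Zscan10 turned after TPM (0.01) or equal-sum rescaling (0.07) and without day 0 replicate 1 (0.17) or day 3 replicate 1 (0.16). Tfe3, whose protein must leave the nucleus for cells to exit the naive state, was the 1 member called higher (0.68, limma adjusted p = 0.048), with overlapping values of 11.9, 7.42 and 7.15 FPKM before and 10.4, 21.9 and 13.1 FPKM after. That call ended without any 1 of 4 libraries (day 0 replicates 2 and 3, day 3 replicates 2 and 3), leaving 0 members higher, and in most fits with another setting.

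Other genes of the naive state behaved alike. Of 19 tested, 15 fell and 0 rose at the threshold, with a median of -2.41. Jam2, a junctional adhesion molecule, went from 24.9, 31.1 and 35.7 FPKM to 0.808, 0.824 and 0.659 FPKM (-4.15). Tdh, the threonine dehydrogenase on which mouse stem cells draw for glycine and acetyl-CoA, went from 359, 282 and 282 FPKM to 31.2, 43.8 and 35.8 FPKM (-3.03, limma adjusted p = 4.54e-06). Dppa5a was among the most abundant transcripts of the list, at 1484, 1551 and 1322 FPKM on day 0, and was still at 352, 460 and 316 FPKM on day 3 (-1.96). Both days were apart for each of these genes, but the residual levels differed by gene: under 1 FPKM for Jam2 and over 300 FPKM for Dppa5a. Spp1 (-3.55), which encodes osteopontin, Alpl (-3.07), the alkaline phosphatase used to stain stem cell colonies, Manba (-3.06) and Ooep (-2.95) fell as well.

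The core pluripotency genes, which are shared by naive and primed cells, divided. Of 8 tested, 3 rose and 2 fell, with a median of -0.05. Pou5f1 (Oct4) was measured at 759, 578 and 597 FPKM on day 0 and at 314, 421 and 327 FPKM on day 3. The values did not overlap, but the change of -0.87 did not pass (limma adjusted p = 0.153). It passed where the spread was taken from the 6 WT libraries alone (limma adjusted p = 0.0089) or from the 12 libraries of days 0 and 3 (0.000462). Sox2, the partner of Oct4, went from 113, 138 and 125 FPKM to 20.02, 38.3 and 43.5 FPKM (-1.92). Lin28a, an RNA-binding repressor of let-7 maturation, rose from 92.1, 70.7 and 66.6 FPKM to 132, 186 and 160 FPKM (1.05, limma adjusted p = 0.00623). Epcam, an epithelial adhesion molecule, rose from 8.85, 13.4 and 9.69 FPKM to 85.2, 96.6 and 85.5 FPKM (2.97). Tdgf1, the Nodal co-receptor, fell by 1.24, a call that ended without day 0 replicate 3 or day 3 replicate 3 and after rescaling to TPM, which left 1 core gene lower. Cdh1 was the third gene to rise, by 0.91, a call that ended after TPM or equal-sum rescaling and without day 0 replicate 1 or any 1 of the day 3 libraries.

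**Figure D1:**
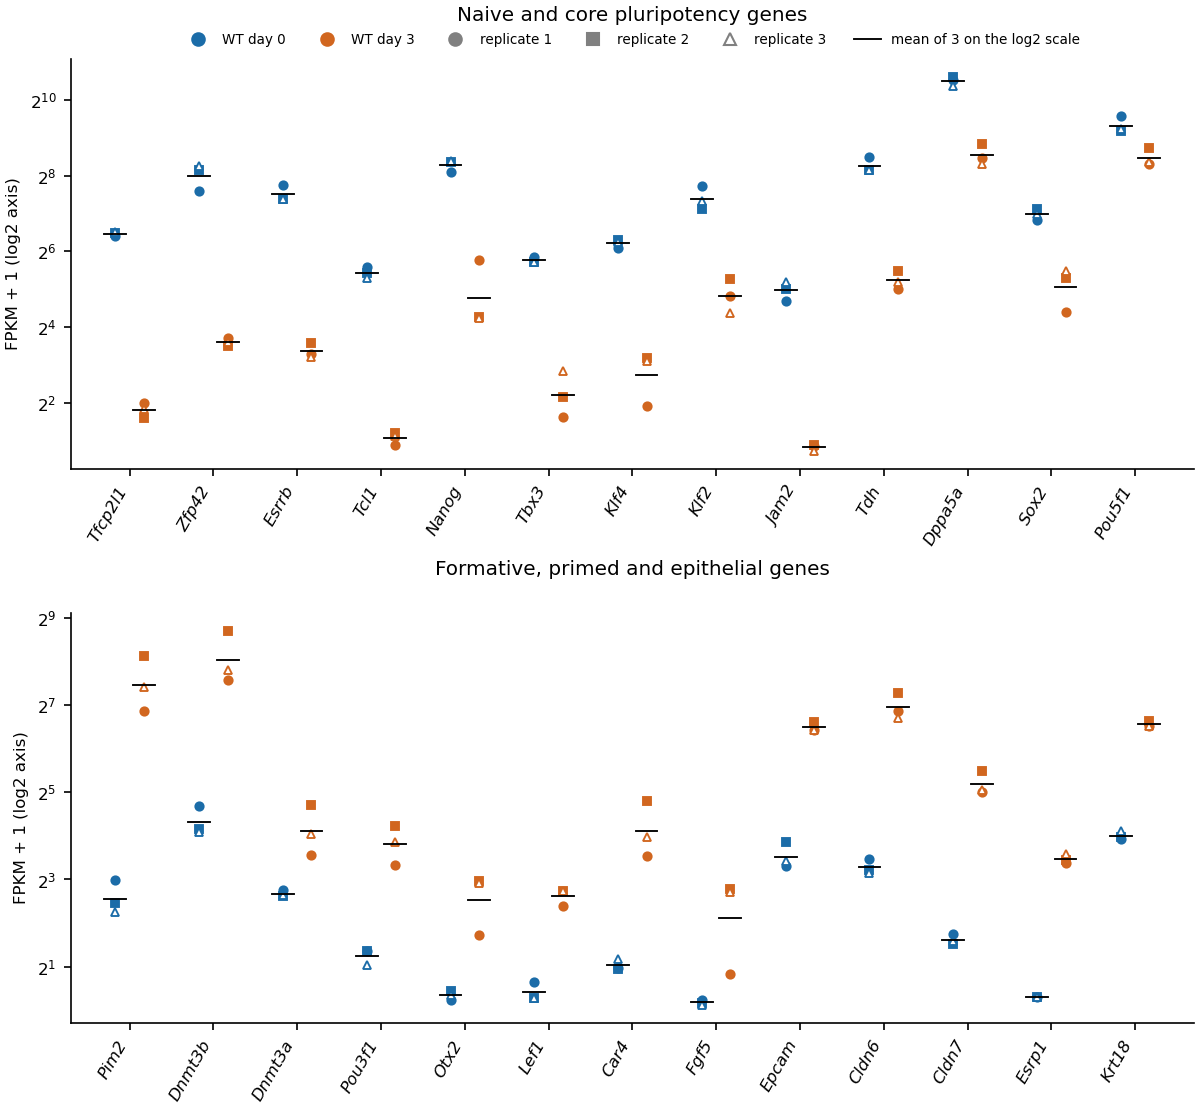
FPKM + 1 on a log2 axis in each of the 3 WT day 0 and 3 WT day 3 libraries (1 symbol per replicate, bar for the mean of 3 on the log2 scale), for 13 naive and core pluripotency genes and 13 formative, primed and epithelial genes. Tfcp2l1, Zfp42 and Esrrb drop to a few percent of their day 0 level, Pou5f1 stays above 300 FPKM in each day 3 library, and Pim2, Dnmt3b and Cldn6 lie above 100 FPKM on day 3.

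Genes of the formative and primed epiblast mostly rose. Of 27 listed, 25 were tested, 15 rose and 5 fell, with a median of 1.24. With a filter of 5 FPKM, 8 members rose. Pou3f1 (Oct6), a POU factor of the primed epiblast, rose from 1.57, 1.55 and 1.06 FPKM to 9.08, 17.8 and 13.6 FPKM (2.56, SE 0.29, limma adjusted p = 6.78e-07). Otx2, which redirects Oct4 to formative enhancers, rose from 0.171, 0.353 and 0.283 FPKM to 2.30, 6.81 and 6.56 FPKM (2.19, limma adjusted p = 0.000194). Neither gene overlapped between days, and for both the lowest day 3 value was that of replicate 1. Lef1 (2.21), a nuclear partner of beta-catenin, Car4 (3.07), a carbonic anhydrase, and Sall2 (1.66) rose too. Fgf5, the classical marker of the primed epiblast, reached 1 FPKM in 2 libraries and was therefore not tested. It stood at 0.180, 0.125 and 0.0956 FPKM on day 0 and at 0.768, 5.91 and 5.57 FPKM on day 3, with replicate 1 again the lowest of its day.

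Some members of that list moved down. Trap1a, an X-linked tumour antigen gene, fell by 2.83. Foxd3, a forkhead factor needed in the epiblast, went from 8.62, 9.17 and 10.5 FPKM to 0.389, 1.63 and 1.21 FPKM (-2.37). Every day 0 library was higher than any day 3 library. Nkx1-2 fell by 1.83. Etv4, an ETS factor downstream of FGF signals, fell by 0.85 with overlapping values, a call that ended after TPM or equal-sum rescaling and without day 0 replicate 1, day 0 replicate 2, day 3 replicate 1 or day 3 replicate 3.

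Of the genes that passed, Pim2 rose most (ENSMUSG00000031155, chrX:7878262-7883432), a serine/threonine kinase of the PIM family that promotes survival and translation. It stood at 6.88, 4.49 and 3.74 FPKM on day 0 and at 116, 278 and 168 FPKM on day 3, a change of 4.91 (SE 0.46, limma adjusted p = 4.9e-08) and a ratio of means of 37.2. On days 6 and 9 the mean had returned to 7.37 and 6.35 FPKM. Kif1a (ENSMUSG00000014602, chr1:93015464-93101951), a kinesin known for axonal transport, rose from 0.764, 0.706 and 0.436 FPKM to 46.9, 35.3 and 41.5 FPKM (4.69, SE 0.18, limma adjusted p = 5.3e-13). Its day 3 values were close together, and its means on days 6 and 9 were 8.68 and 5.11 FPKM.

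Among the 12 genes that rose most, Bhlhe41, a basic helix-loop-helix repressor known from the circadian clock, went from 0.389, 0.292 and 0.166 FPKM to 22.3, 8.92 and 23.9 FPKM (3.81). Foxi3, a forkhead factor known from ectodermal development, went from 0.423, 0.612 and 0.311 FPKM to 20.2, 15.6 and 20.2 FPKM (3.76). Day 3 was the high point for both: their day 6 means were 1.31 and 0.378 FPKM. Cnn1 (3.28), which encodes the actin-binding calponin, Gadd45g (3.35), a stress sensor, and Dusp4 (3.42), a phosphatase of MAP kinases, were also in this group. Gadd45g had 1.77, 1.07 and 0.612 FPKM on day 0 and a wide spread of 6.93, 23.9 and 48.3 FPKM on day 3. Ddit4, an inhibitor of mTORC1 induced by stress and low oxygen, gave 20.3, 18.2 and 10.3 FPKM on day 0 and 512, 114 and 90.2 FPKM on day 3 (3.40, limma adjusted p = 0.000169), with replicate 1 far above the other day 3 libraries. Without it the change was 2.62 (limma adjusted p = 0.00161).

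The microRNA gene Mir6381 was also among the 12. Its mature sequence is shown because this was the 1 microRNA gene in the ranked set, with the seed (bases 2 to 8) in capitals, from RefSeq on GRCm38.p6.
mmu-miR-6381, chr3:142623925-142623945, minus strand: cAGGAUGCuggugacaugagu

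Reads at Mir6381 were few: 1, 0 and 0 recovered reads on day 0 and 24, 10 and 7 on day 3 (1.04, 0 and 0 FPKM before, 15.6, 10.9 and 7.79 FPKM after). The log2 fold change was 3.24 (limma adjusted p = 0.00673) and no longer passed after rescaling to TPM (0.05). The gene lies within Gbp2, a guanylate-binding protein gene on the opposite strand, outside its exons. A counting strand is not stated, so reads from the Gbp2 transcript cannot be told apart from those of the microRNA gene, and poly(A) libraries do not measure mature microRNAs. Gbp2, chosen after its values were seen, rose too, from 0.108, 0.125 and 0.127 FPKM to 7.66, 3.32 and 4.54 FPKM (2.40, limma adjusted p = 0.000591).

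Beside naive factors, the genes that fell most included others. Mymx (ENSMUSG00000079471, chr17:45600971-45602102), known as the myomixer micropeptide of muscle cell fusion, went from 60.4, 39.5 and 47.3 FPKM to 1.43, 0.554 and 0.754 FPKM, the lowest change of all ranked genes (-4.71, SE 0.29, limma adjusted p = 1.9e-10). Tcl1, a co-activator of AKT kinase that is counted in the naive transcription factor list although it does not bind DNA, went from 46.9, 42.0 and 38.5 FPKM to 0.827, 1.28 and 1.15 FPKM (-4.38). Calcoco2, a receptor of selective autophagy, went from 54.2, 55.6 and 54.0 FPKM to 1.53, 2.81 and 1.19 FPKM (-4.33). The other genes of the 12 were Fam25c (-4.55), Arl14epl (-4.52), Rpl10l (-4.39), Mylpf (-4.32), H2-M5 (-4.22), Cdx1 (-4.22) and Sept1 (-4.19), next to Tfcp2l1 and Zfp42. Mylpf, a myosin light chain gene, and Sept1 lie next to each other on chromosome 7, and with no counting strand stated their reads may be shared in part. Mean levels of all 12 were lower on days 6 and 9 than on day 0.

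**Figure D2:**
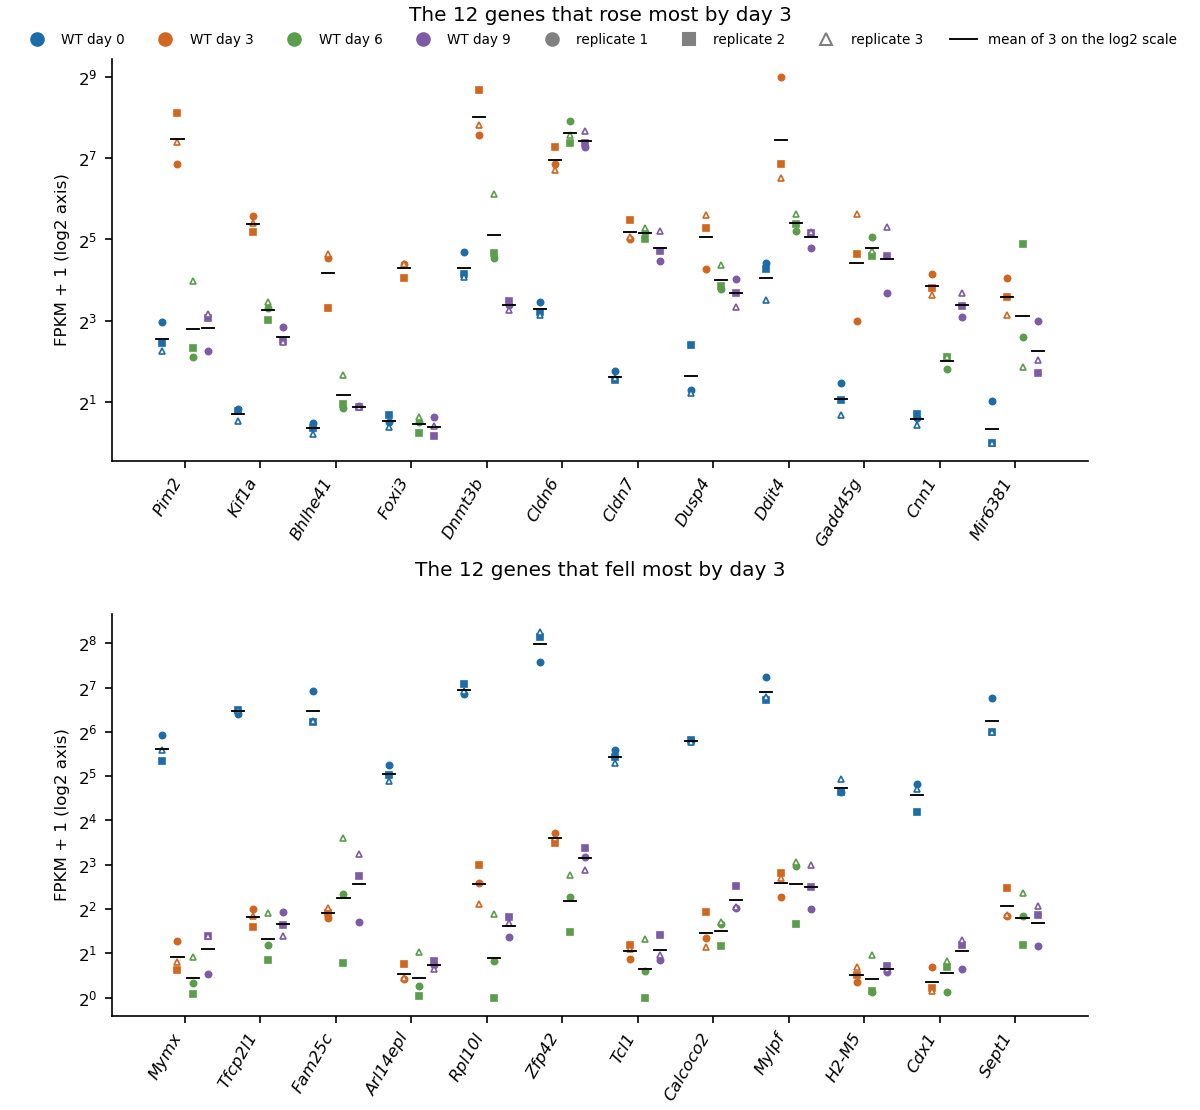
FPKM + 1 on a log2 axis in the 12 WT libraries of days 0, 3, 6 and 9 for the 12 genes that rose most and the 12 that fell most by day 3 (3 symbols per day, bar for the mean on the log2 scale). Pim2, Bhlhe41 and Foxi3 peak on day 3 and come back, Cldn6 and Cldn7 stay high, and the genes that fell stay below their day 0 level.

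In the list of epithelial and mesenchymal genes, 17 of 20 were tested, 11 rose and 2 fell, with a median of 0.98. Of its mesenchymal members, Fn1 and Vim fell, Cdh2, N-cadherin, rose by 0.98 (lost after rescaling to TPM), and Snai1 and Twist1 did not pass (0.73 and 0.28). Without day 3 replicate 1, Snai1 passed upward (1.15, limma adjusted p = 0.0106). Cldn6 (ENSMUSG00000023906, chr17:23679249-23682446), a tight junction claudin of embryonic epithelia, rose from 10, 8.33 and 7.89 FPKM to 115, 155 and 104 FPKM (3.67, SE 0.26, limma adjusted p = 1.2e-09). Cldn7 rose from 2.36, 1.89 and 2.00 FPKM to 31.1, 44.0 and 32.3 FPKM (3.56). Both claudins remained high afterwards, at day 9 means of 174 and 27.5 FPKM. Esrp1, a splicing regulator of epithelial isoforms, rose from 0.229, 0.236 and 0.240 FPKM to 9.34, 9.97 and 11.1 FPKM (3.17). Krt18, a keratin of simple epithelia, rose from 14.3, 14.7 and 16.3 FPKM to 91.3, 97.9 and 90.5 FPKM (2.55), and its mean went on to 1075 FPKM on day 6. The members that fell were Fn1, fibronectin, from 138, 123 and 118 FPKM to 23.3, 21.6 and 22.9 FPKM (-2.43), and Vim, vimentin (-1.27). After rescaling to TPM, 7 members of the list rose and 1 fell, the Vim call being lost.

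The stretch before a RefSeq start of Cldn6 and of Cldn7 is shown because both claudins rose and both hold the full cyclic AMP response element TGACGTCA, a site type of the ATF and CREB family. The element lay 40 to 33 bases before that start in Cldn6 and 38 to 31 bases before it in Cldn7. GENCODE also has transcripts of both genes that start farther upstream, so that these stretches overlap an annotated exon of the same gene. Among promoters of the table, 1.546% of 32851 held the element, and of the 111 named genes 3 did (Cldn6, Cldn7 and Plk2). The stretches are from RefSeq on GRCm38.p6, with the match in capitals.
Cldn6, chr17:23679314-23679343, plus strand: aggtggtccagTGACGTCAttgagacttta
Cldn7, chr11:69965372-69965401, plus strand: tgtcccttcagTGACGTCAggtcactcgac

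All 24 ranked genes, Cldn6 and Cldn7 included, were called in the same direction in Atf3 KO cells as in WT. Whether the element acts in either claudin gene was not tested.

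The basement membrane and matrix list gave 4 members that rose and 7 that fell of 17 tested, with a median of -0.33. Nid1, the linker nidogen, fell from 25.6, 31.2 and 29.8 FPKM to 5.00, 3.32 and 3.76 FPKM (-2.58). Col4a2, a type IV collagen chain, rose from 2.82, 3.38 and 2.76 FPKM to 5.71, 9.37 and 8.99 FPKM (1.16, limma adjusted p = 0.000931). Laminin chains divided, with Lamb1 up (1.45) and Lamc1 (-1.32) and Lama1 (-1.31) down, and these laminin calls ended after rescaling to TPM, under which 1 member of the list rose and 2 fell.

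Writers and readers of DNA methylation changed in both directions: of 16 tested, 4 rose and 6 fell, with a median of -0.12. Dnmt3b (ENSMUSG00000027478, chr2:153649450-153687730), a de novo methyltransferase, rose from 24.9, 16.8 and 15.96 FPKM to 189, 412 and 223 FPKM (3.71, SE 0.36, limma adjusted p = 7.7e-08). Dnmt3a, the other de novo enzyme, rose from 5.75, 5.17 and 5.21 FPKM to 10.8, 25.2 and 15.4 FPKM (1.43). Both enzymes were higher in each day 3 library than in any day 0 library. Dnmt3l, their catalytically inactive partner, gave 59.4, 31.9 and 37.4 FPKM before and 32.7, 63.8 and 29.1 FPKM after, with overlapping ranges and a change of -0.07 (limma adjusted p = 0.919). That sign turned with equal sums (0.05) and without day 0 replicate 1 (0.18), day 3 replicate 1 (0.06) or day 3 replicate 3 (0.14). Uhrf2 rose by 0.78 and Tet3 by 0.73. Both calls ended after rescaling to TPM and without day 3 replicate 3, which left 2 members that rose, and the Uhrf2 call also without day 0 replicate 1 and the Tet3 call without day 3 replicate 1.

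On the lower side stood Zfp57, which protects imprinted regions from demethylation. It went from 60.5, 70.6 and 72.5 FPKM to 2.15, 4.08 and 2.91 FPKM (-4.11, SE 0.21, limma adjusted p = 1.03e-11). Tet2, a 5-methylcytosine dioxygenase, went from 1.98, 2.99 and 4.11 FPKM to 0.519, 0.107 and 0.298 FPKM (-1.60). Uhrf1, which brings Dnmt1 to replicating DNA, went from 249, 183 and 173 FPKM to 72.7, 115 and 84.2 FPKM (-1.16, limma adjusted p = 0.00237). Trim28, the KAP1 co-repressor that Zfp57 recruits, fell by 1.18, a call that ended without day 0 replicate 1, day 3 replicate 1 or day 3 replicate 3. Dnmt1 fell by 0.89 (lost after rescaling to TPM).

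Germline genes, many of which are silenced by promoter methylation in the epiblast, were tested for 12 of 25 members: 3 rose and 5 fell, with a median of -0.24. Tex19.1 fell by 2.36 and Fkbp6 by 2.28. Sycp3, a component of the meiotic chromosome axis, rose from 1.07, 1.12 and 1.89 FPKM to 5.94, 3.23 and 8.12 FPKM (1.47).

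**Figure D3:**
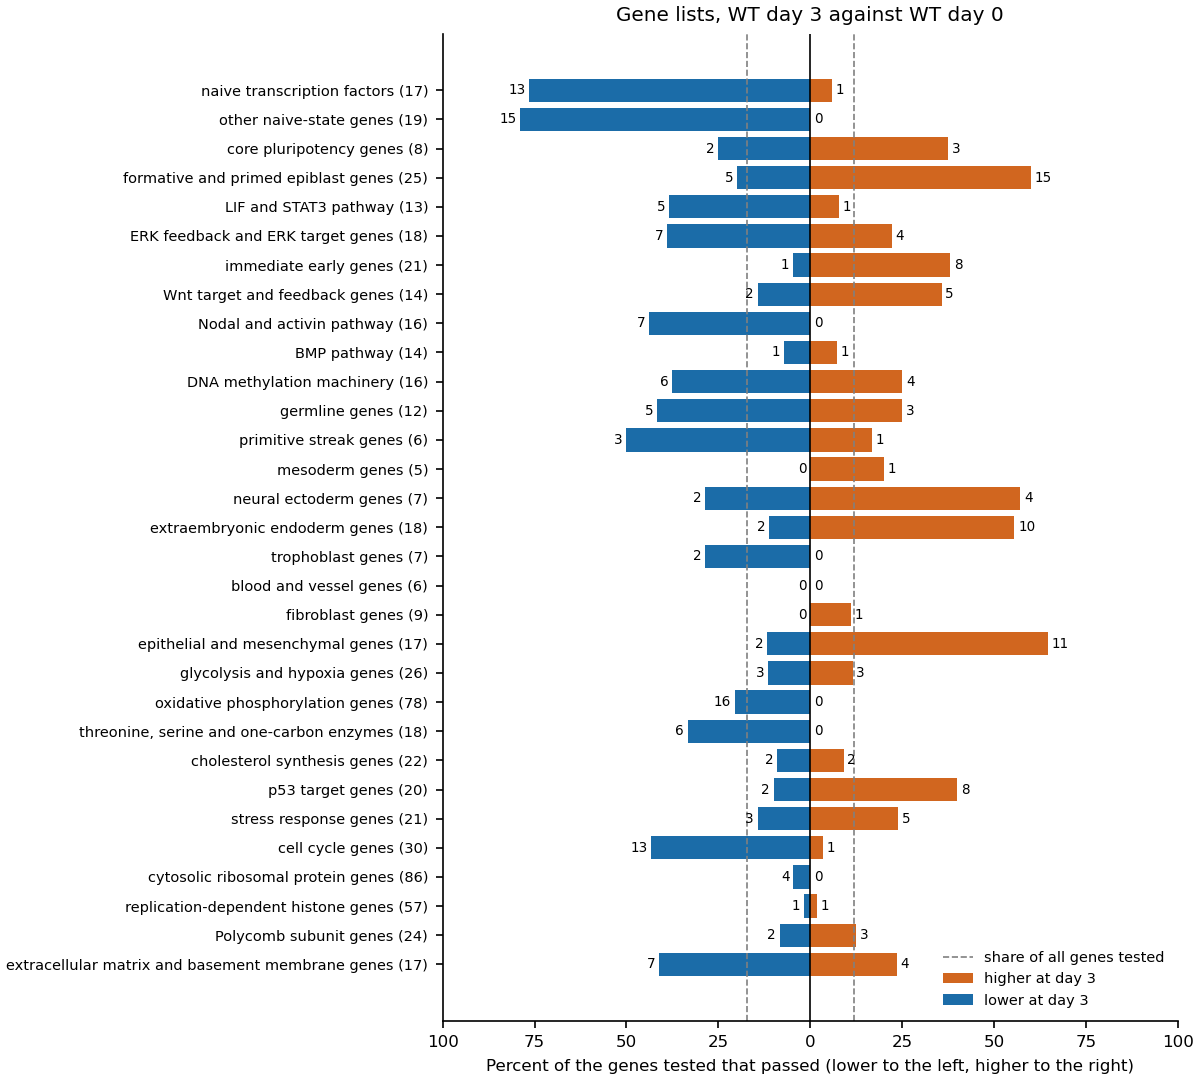
Percent of the tested members of each gene list that fell (to the left) or rose (to the right) from day 0 to day 3 in WT cells, with the number of such members at the bar ends, the number tested in brackets, and dashed lines at the shares over all 12410 genes (17.3% lower, 11.9% higher). The naive lists lie far to the left of the dashed line, and the formative and the epithelial lists far to the right.

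LIF acts through the gp130 receptor and STAT3. Of 16 listed genes of this pathway, 13 were tested, 1 rose and 5 fell, with a median of -0.32. Targets and effectors led the falls: Pim1 went from 46.1, 44.1 and 35.3 FPKM to 5.93, 13.98 and 11.0 FPKM (-1.98), Pim3 fell by 1.95, and Bcl3, an atypical I-kappa-B protein, by 2.09. Pim1 and Pim3 thus fell while their relative Pim2 rose. Tyk2, a JAK kinase, fell by 1.11, and Lifr, the LIF receptor, by 0.67, though the Lifr call ended after TPM or equal-sum rescaling and without day 0 replicate 3, day 3 replicate 1 or day 3 replicate 2. Stat3 itself was at 22.7, 19.7 and 17.6 FPKM before and at 20.2, 22.8 and 24.6 FPKM after, with overlapping ranges (0.17, limma adjusted p = 0.569). Socs3, its feedback inhibitor, did not pass either (-0.59, limma adjusted p = 0.276). The 1 rise was Lif, by 0.59, which passed in none of the fits with 1 of the 6 libraries left out.

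Genes that report ERK activity did not move as 1 group. Of 18 tested, 4 rose and 7 fell, with a median of -0.39. Spry4, an inhibitor of receptor tyrosine kinase signals, went from 13.4, 63.0 and 20.7 FPKM to 2.03, 3.68 and 5.99 FPKM (-2.55), and Dusp6, the ERK phosphatase, from 8.12, 29.1 and 11.7 FPKM to 1.95, 3.85 and 5.00 FPKM (-1.78). In both, day 0 replicate 2 was the highest library and the days did not overlap. Myc, a growth factor-responsive oncogene, went from 17.4, 22.8 and 27.1 FPKM to 1.27, 3.52 and 3.17 FPKM (-2.72, limma adjusted p = 4.9e-06). Dusp4 stood at 1.45, 4.29 and 1.31 FPKM before and at 18.4, 38.1 and 47.7 FPKM after (3.42). Egr1 varied most within a day, with 1.99, 170 and 72.7 FPKM on day 0 against 2.19, 10.2 and 13.6 FPKM on day 3. Its change of -2.06 did not pass (limma adjusted p = 0.257), and without day 0 replicate 1 it was -3.80 and passed (0.025). Without day 3 replicate 1, 3 members of the list fell in place of 7, Spry2 (-1.60) being among those lost. Without day 3 replicate 2, 2 rose in place of 4.

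Immediate early genes leaned upward: 8 of 21 tested rose and 1 fell, with a median of 0.71. Klf6 rose from 4.91, 10.2 and 6.92 FPKM to 18.2, 41.9 and 85.7 FPKM (2.37), Fosl2 from 0.326, 0.300 and 0.157 FPKM to 10.5, 2.75 and 2.63 FPKM (2.10) and Srf, the serum response factor, from 16.5, 17.8 and 10.9 FPKM to 35.3, 51.0 and 31.2 FPKM (1.32). Each of the 3 was higher in every day 3 library. Jun rose by 1.31 with overlapping values, a call that ended after rescaling to TPM and without day 0 replicate 1, day 0 replicate 3, day 3 replicate 2 or day 3 replicate 3. The 1 fall was Ier2 (-1.61), a call that ended without any 1 of the day 0 libraries and without day 3 replicate 1 or day 3 replicate 3. After rescaling to TPM, 4 of the list rose.

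Atf3 (ENSMUSG00000026628, chr1:191170296-191218039, minus strand), the stress-induced ATF and CREB family factor that the KO cells lack, belongs to the same list. In WT it was measured at 1.38, 3.06 and 1.15 FPKM on day 0 and at 5.03, 15.8 and 10.5 FPKM on day 3, so that the ranges did not overlap. The change was 1.94 (SE 0.41, limma adjusted p = 0.00095), and the level stayed at means of 15.8 and 15.0 FPKM on days 6 and 9. In the libraries labelled KO the means were 0.172 FPKM on day 0 and 0.436 FPKM on day 3. A stretch of 21 bases before the start that the RefSeq table gives is shown because it holds the variant ATF site TTACGTCA, which 0.447% of promoters held, 10 to 3 bases before that start (GRCm38.p6, match in capitals). This start lies inside the gene interval given above, whose outer end is the start of a longer transcript, and the stretch overlaps an annotated Atf3 exon.
Atf3, chr1:191183334-191183354, minus strand: tattaatagcaTTACGTCAgc

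GSK3 inhibition in the stem cell medium activates Wnt signalling. Targets of the pathway divided: 5 of 14 tested rose and 2 fell, with a median of 0.21. Cdx1, a caudal homeobox gene, went from 27.3, 17.2 and 25.1 FPKM to 0.613, 0.163 and 0.111 FPKM (-4.22), and Notum, a secreted Wnt deacylase, from 16.7, 11.5 and 11.7 FPKM to 1.03, 1.85 and 1.25 FPKM (-2.58). Nkd2, another feedback gene, rose from 0.318, 0.439 and 0.231 FPKM to 2.45, 2.73 and 2.71 FPKM (1.45), and Lef1 rose as given above. Axin2, the most used reporter of the pathway, gave overlapping values of 13.1, 7.80 and 8.86 FPKM before and 4.66, 8.96 and 11.0 FPKM after (-0.29, limma adjusted p = 0.687). Without day 3 replicate 1 its change was 0.03 (limma adjusted p = 0.975). The number that rose was 3 without day 0 replicate 1, day 3 replicate 1 or day 3 replicate 3, and 2 after rescaling to TPM.

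Nodal and activin genes had 7 members that fell and 0 that rose of 16 tested, with a median of -0.35. Lefty2, a secreted Nodal antagonist, went from 136, 143 and 159 FPKM to 12.2, 10.7 and 6.86 FPKM (-3.78), and Inhbb, an activin subunit, from 11.0, 6.78 and 9.74 FPKM to 0.0664, 0.156 and 0.0455 FPKM (-3.20). Gdf3 fell by 2.44, Smad7, the inhibitory Smad, by 2.11, and Pcsk6, a convertase that activates Nodal, by 1.94. The ligand Nodal went from 50.6, 40.4 and 36.2 FPKM to 14.5, 26.4 and 24.3 FPKM (-0.96, limma adjusted p = 0.00438, lost after rescaling to TPM). Without day 0 replicate 1 or day 3 replicate 1, 1 member rose.

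BMP genes rose and fell once each among 14 tested, with a median of 0.15. The ligand Bmp4 went from 13.9, 18.6 and 17.7 FPKM to 1.73, 1.86 and 2.24 FPKM (-2.59, limma adjusted p = 3.8e-09), while Id2, a target of BMP and other signals, rose from 1.18, 1.8 and 1.31 FPKM to 31.6, 11.3 and 14.4 FPKM (2.92). Id1 stood at 20.3, 28.0 and 15.3 FPKM before and at 92.6, 20.6 and 12.8 FPKM after, the 1 high library being replicate 1 (0.49, limma adjusted p = 0.677). Without that library the change of Id1 was -0.33 (limma adjusted p = 0.817).

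Lineage lists were measured in part only, since many members were under the filter. For the primitive streak, 6 of 18 were tested, 1 rose and 3 fell, with a median of -0.42. Fgf17 fell by 2.92, and T (brachyury) was at 1.13, 0.474 and 0.689 FPKM before and 1.27, 1.06 and 1.38 FPKM after (0.36, limma adjusted p = 0.715). Wnt3, a ligand needed for the streak, rose from 0.176, 0.153 and 0.130 FPKM to 7.69, 1.79 and 1.92 FPKM (1.84, limma adjusted p = 0.00354), with replicate 1 highest. Of 5 mesoderm genes tested among 18, 1 rose (2 without day 3 replicate 1, and 0 with a filter of 5 FPKM), and of 6 blood and vessel genes among 16, 0 passed under limma. For neural ectoderm, 7 of 20 were tested, 4 rose and 2 fell, with a median of 0.98, although the 4 defining markers stayed under 1 FPKM. The members that rose are not neural only: Dll1, a Notch ligand, went from 0.449, 0.539 and 0.132 FPKM to 3.53, 10.5 and 22.8 FPKM (2.98), and Nes, nestin, from 3.63, 3.76 and 3.86 FPKM to 17.7, 10.8 and 16.9 FPKM (1.73). The 2 that fell were Tubb3 and Ncam1, at -1.76 and -1.29 without day 3 replicate 1. The Tubb3 call ended after rescaling to TPM. With a filter of 5 FPKM, 1 member of the neural list rose and 1 fell.

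Of the lineage lists, extraembryonic endoderm had the most members tested, 18 of 24, and with them the most calls. Of these, 10 rose and 2 fell, with a median of 1.07, beside 4 that rose and 2 that fell of 7 in the neural list. The largest rises were in endocytic receptor genes and an adaptor. Lrp2, megalin, rose from 0.832, 0.868 and 1.01 FPKM to 8.27, 4.57 and 11.3 FPKM (2.17), Dab2, an endocytic adaptor, from 0.295, 0.363 and 0.347 FPKM to 2.78, 6.25 and 6.75 FPKM (2.16) and Cubn, cubilin, from 0.0483, 0.1102 and 0.0801 FPKM to 1.94, 1.57 and 4.57 FPKM (1.69). Gata4, a defining factor of this lineage, rose from 0.948, 1.49 and 1.04 FPKM to 3.28, 5.37 and 3.92 FPKM (1.25, limma adjusted p = 0.000295). The levels were low beside those of later days, when the Gata4 mean was 13.3 FPKM on day 6 and 16.4 FPKM on day 9. The other defining markers Gata6 and Sox17 were not tested and reached at most 1.73 and 0.536 FPKM on day 3. With a filter of 5 FPKM, 3 members of the list rose. Among 7 trophoblast genes tested of 16, 2 fell and 0 rose. Among 9 fibroblast genes tested of 15, 1 rose, Thy1 (1.5), from 2.38, 1.18 and 1.304 FPKM to 6.02, 7.41 and 5.56 FPKM. None of the 15 listed genes of 2-cell-like cells, 14 of which are in the table, passed the filter, and of 4 Hox genes tested among 39, 2 fell and 0 rose.

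In glycolysis and hypoxia genes, 3 of 26 rose and 3 fell, with a median of -0.05. Pfkp, a phosphofructokinase, fell from 17.6, 19.6 and 18.9 FPKM to 6.36, 3.11 and 3.72 FPKM (-1.91), and Slc2a1, the glucose transporter GLUT1, rose from 117, 109 and 85.8 FPKM to 401, 279 and 188 FPKM (1.41, limma adjusted p = 0.000603, lost after rescaling to TPM, under which 0 members rose). Egln3, an oxygen sensor and HIF target, was at 3.59, 3.83 and 2.96 FPKM before and at 79.2, 7.55 and 6.58 FPKM after (1.96, limma adjusted p = 0.041). Without day 3 replicate 1 its change was 0.86 (limma adjusted p = 0.33), and the call also ended without any 1 of the day 0 libraries.

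Of 78 oxidative phosphorylation genes tested, 16 fell, a share near the 17.3% of all genes tested, and 0 rose. A change below 0 was found for 72. The median was -0.44, against -0.08 for all genes and -0.18 for the genes that passed a filter of 5 FPKM. Ndufb4, a complex I subunit, went from 54.5, 50.2 and 49.9 FPKM to 15.7, 24.96 and 16.8 FPKM (-1.41, limma adjusted p = 0.000147). The count depended on single libraries: 7 fell without day 0 replicate 1, 8 without day 3 replicate 1 and 4 without day 3 replicate 3, while 2 fell after rescaling to TPM and 47 where the spread was taken from the 12 libraries of days 0 and 3. Of 18 enzymes of threonine, serine and one-carbon metabolism, 6 fell and 0 rose (median -0.41), led by Tdh, and 2 fell after rescaling to TPM. Of 22 cholesterol synthesis genes, 2 rose and 2 fell, with a median of 0.15. These counts changed with single libraries: 1 rose without day 0 replicate 1, day 3 replicate 1 or day 3 replicate 3, and 0 fell without any 1 of those libraries.

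Of 20 genes tested in the p53 target list, which also holds Trp53 itself, 8 rose and 2 fell, with a median of 0.74. The 2 that fell were Trp53 and Gdf15. BH3-only genes of apoptosis were among those that rose: Pmaip1 (Noxa) went from 0.818, 2.34 and 2.11 FPKM to 13.7, 9.32 and 18.9 FPKM (2.44, limma adjusted p = 0.000107) and Bbc3 (Puma) from 6.37, 7.86 and 4.50 FPKM to 18.2, 28.4 and 33.2 FPKM (1.92). Plk2, a polo-like kinase, rose from 4.92, 7.73 and 5.57 FPKM to 19.7, 24.3 and 39.9 FPKM (1.99). The cell cycle inhibitor Cdkn1a stayed within the range of both days, at 82.9, 65.0 and 57.0 FPKM before and 66.3, 83.0 and 81.3 FPKM after (0.18, limma adjusted p = 0.552). Gdf15 fell by 1.33, and Trp53 went from 194, 137 and 128 FPKM to 59.8, 108 and 76.2 FPKM (-0.93, also lost after rescaling to TPM). After rescaling to TPM, 3 genes of the list rose and 1 fell.

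Stress response genes showed 5 rises and 3 falls among 21 tested, with a median of 0.25. Ddit3 (CHOP) rose from 5.00, 4.94 and 2.98 FPKM to 18.7, 18.2 and 23.8 FPKM (2.02), and Cebpb, its dimer partner, from 2.04, 2.19 and 1.91 FPKM to 11.8, 10.9 and 10.2 FPKM (1.97). Asns, asparagine synthetase and a target of ATF4, moved the other way, from 246, 283 and 286 FPKM to 72.0, 78.7 and 63.1 FPKM (-1.92, limma adjusted p = 2.89e-06). After rescaling to TPM, 3 rose and 1 fell.

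Of 30 cell cycle genes tested, 13 fell and 1 rose, with a median of -0.54. Ccnd3, cyclin D3, went from 47.9, 29.97 and 29.2 FPKM to 6.17, 7.56 and 4.42 FPKM (-2.37), and the inhibitor Cdkn1c (p57) rose from 2.52, 1.61 and 1.49 FPKM to 7.29, 7.91 and 5.55 FPKM (1.47). Rescaling to TPM left 3 that fell. Cytosolic ribosomal protein genes gave 0 rises and 4 falls among 86 tested, at a median of 0.12. Those that fell were tissue-restricted or derived copies: Rpl10l, from 115, 135 and 121 FPKM to 5.02, 6.95 and 3.31 FPKM (-4.39), Rpl39l (-2.69), Rps4l (-1.25) and Rpl7l1 (-0.88, lost after rescaling to TPM). Near-identical copies share reads, so the split between such copies and their parents is uncertain. Of 57 replication-dependent histone genes, 1 rose (Hist3h2ba, 1.43) and 1 fell, and the number that fell ranged from 0 to 4 with 1 library left out: 0 without day 0 replicate 1, day 0 replicate 3 or day 3 replicate 1, 2 without day 0 replicate 2 or day 3 replicate 3, and 4 without day 3 replicate 2. Poly(A) selection retains little of such transcripts. Of 24 Polycomb genes, 3 rose and 2 fell. With each library left out in turn the number that fell was 0 to 2, with 0 without day 0 replicate 3, 2 without day 0 replicate 2 and 1 without each of the others.

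In several genes 1 library set the value of a day. Day 3 replicate 1 was the high one for Ddit4, Egln3, Id1 and Wnt3 and, chosen after their values were seen, for Ier3 (83.8 FPKM against 3.52 and 2.05 FPKM) and for Adm, which encodes adrenomedullin (31.6 FPKM against 3.16 and 1.79 FPKM). Without that library, the Adm change of 2.59 was 1.51 and no longer passed (limma adjusted p = 0.13). The Ier3 change of 0.57 was then -0.94, and neither passed in limma. It was also the library with the lowest rRNA-type share, 15.3%, and in KO cells day 3 replicate 1 likewise had the highest Ddit4 level of its group, 448 FPKM against 109 and 77.3 FPKM, with an rRNA-type share of 15.4%. The part of these shares in the results was not tested.

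**Figure D4:**
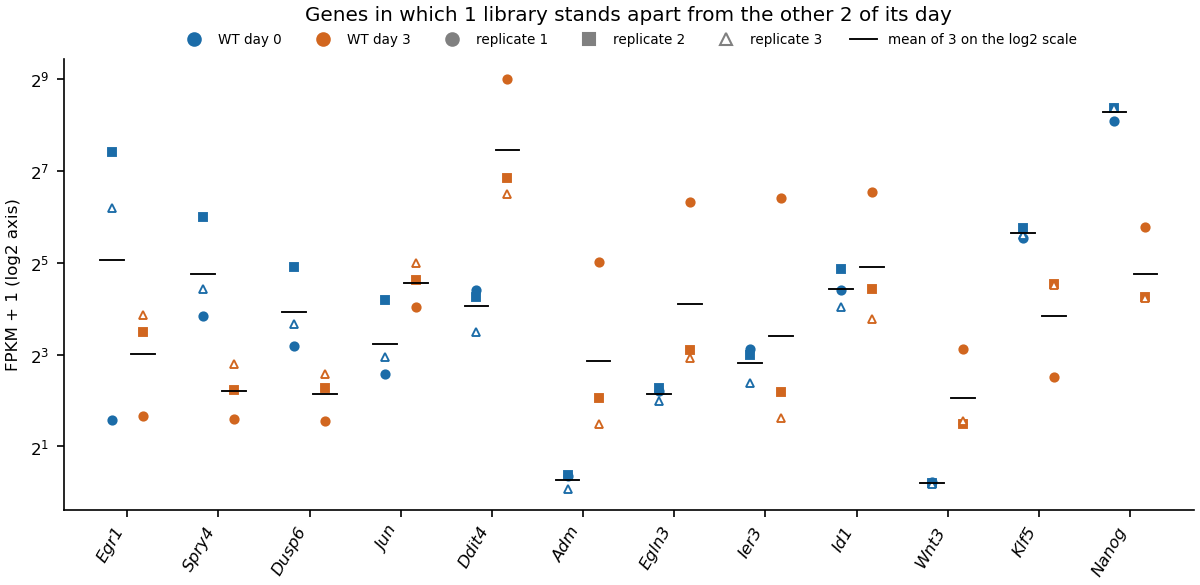
FPKM + 1 on a log2 axis in the 3 WT day 0 and 3 WT day 3 libraries (1 symbol per replicate, bar for the mean on the log2 scale) for 12 genes in which 1 library lies apart from the other libraries of its day. Egr1 is low in day 0 replicate 1 (1.99 FPKM against 170 and 72.7 FPKM), and Ddit4, Adm, Egln3 and Ier3 are highest in day 3 replicate 1.

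The same step was measured in Atf3 KO cells, in libraries that share no sample with the WT comparison, and asks how far the change depends on the genotype. Same-numbered day 3 libraries of both genotypes varied alike in some genes, chosen after their values were seen. In replicates 1, 2 and 3, Adm stood at 31.6, 3.16 and 1.79 FPKM in WT and 32.6, 2.46 and 1.58 FPKM in KO. Gbx2 stood at 1.89, 14.7 and 8.49 FPKM in WT and 2.28, 14.96 and 7.83 FPKM in KO. How far this holds across genes was not tested, so the match of both steps cannot be taken as independent. In KO, 3945 of the 12410 genes passed (31.8%): 1550 (12.5%) rose and 2395 (19.3%) fell. Of the 3624 WT calls, 3218 were called in the same direction in KO, which is 88.8% of the WT calls and 81.6% of the KO calls, 0 were called in the opposite direction, and 3621 had the same sign. Pearson's r between both sets of log2 fold changes was 0.958 across the 12410 genes, which are not independent replicates. The median absolute difference for genes called in WT was 0.12. The 24 genes that rose or fell most in WT were all called in the same direction in KO, and their WT minus KO differences lay between -0.98 and 0.79. Tfcp2l1 changed by -4.65 in both genotypes, Kif1a by 4.69 in WT and 4.59 in KO, Pim2 by 4.91 and 4.66, and Dnmt3b by 3.71 and 3.48.

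The difference between the WT step and the KO step was tested as an interaction, which 1 of 12410 genes (0.00806%) passed. An unadjusted p under 0.05 in limma was found for 67 genes (0.54%), and for 139 in the fit of 12 libraries. Where no gene differs, a share of 0.05 is expected on average, so the test was conservative here. The cause was not tested, and the few calls do not show that the steps were equal. For Atf3 itself, the WT change of 1.94 stood beside a KO change of 0.29 (difference 1.65, limma unadjusted p = 0.0092, adjusted p = 1). Members of the extraembryonic endoderm list had smaller changes in KO, with a median of 0.52 beside 1.07 in WT and 6 that rose beside 10, but no member differed between genotypes after adjustment. The filter was set on WT columns alone, which favours genes that are high in WT. Sox7, a marker of this lineage, passed it only through WT day 3, at 1.079, 1.61 and 1.085 FPKM. Its KO day 3 values were 0.502, 0.253 and 0.377 FPKM. Gata4 changed by 1.25 in WT and by 0.45 in KO (limma unadjusted p of the difference = 0.024), and Srgn, the proteoglycan serglycin, by 2.06 and 0.69 (0.012), with an adjusted p of 1 for both. The lists of naive transcription factors (medians -2.58 in WT and -2.74 in KO) and of formative and primed genes (1.24 and 1.15) lay close together in both genotypes.

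The 1 gene that passed was Nkx6-3 (chr8:23153269-23158948), a homeobox gene known from the stomach, chosen after its values were seen because its level lay under the minimum for named genes. It passed the filter, which was set on WT columns alone, only through the 3 WT day 0 libraries, and its KO values of days 0 and 3 were under 1 FPKM, so the gene was tested because of the group in which it is high. It stood at 2.18, 2.52 and 3.03 FPKM in WT on day 0 and at 0.0505, 0.0847 and 0 FPKM on day 3, and in KO at 0.974, 0.743 and 0.636 FPKM on day 0 and 0.0477, 0.0287 and 0 FPKM on day 3. Both genotypes were near 0 on day 3, and the day 0 levels did not overlap. The change was -1.77 in WT and -0.80 in KO, a difference of -0.97 (limma adjusted p = 0.00724). Its call ended with a pseudocount of 0.1, after rescaling to TPM, in the fit of 12 libraries and with limma-voom on recovered reads, each with an adjusted p of 1.

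**Figure D5:**
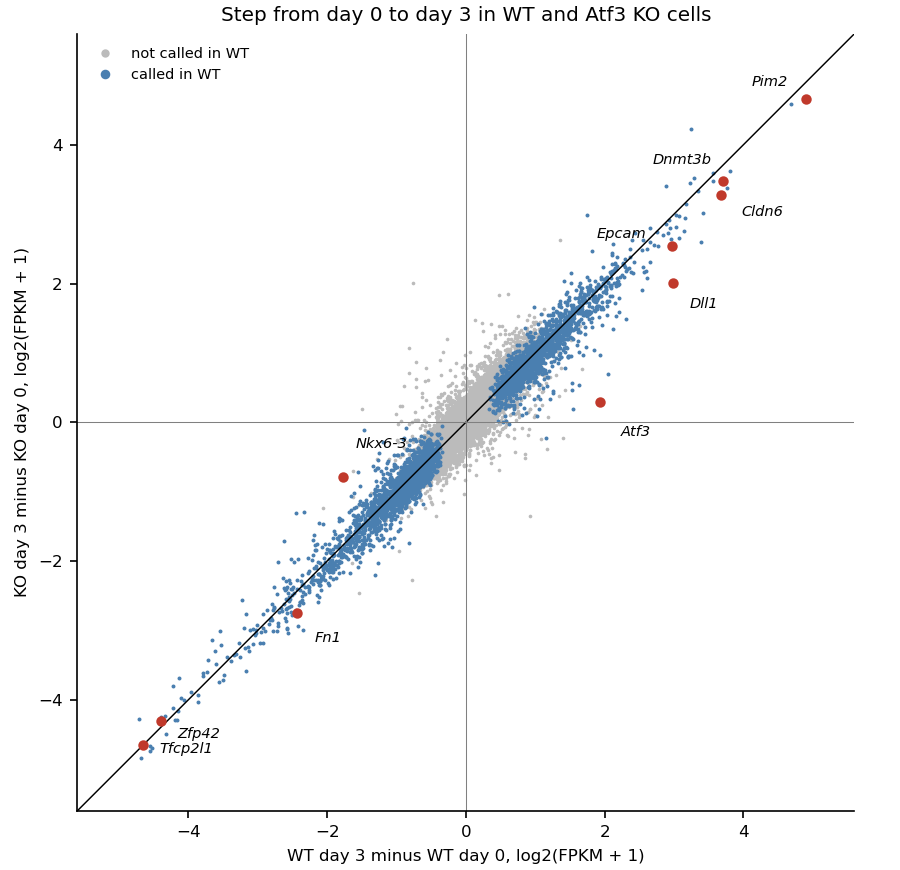
Change from day 0 to day 3 on the log2(FPKM + 1) scale in WT cells (horizontal axis) and in Atf3 KO cells (vertical axis) for the 12410 genes tested, with genes called in WT in blue, 10 genes named and the line of equal change. Most genes lie along the line (Pearson's r 0.958 across genes), and Atf3 lies below it at 1.94 in WT and 0.29 in KO.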

How the data were processed

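RNA-seq of mouse embryonic stem cells was taken as the FPKM table the authors deposited. Per the submitters' processing notes, reads were handled with HISAT2 2.2.1 and featureCounts 2.0.1 on build mm10, beside Trimmomatic 0.39, FastQC 0.11.9, R 4.1.0 and DESeq2 1.30.1. The sources used here do not say how the FPKM was computed. The 24 columns were mapped to samples by name, 1 of them (KO day 0) to its group only.

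With GENCODE vM21 exon lengths (53360 of 53465 identifiers), FPKM values fell on steps worth 1 read, and in the 6 WT libraries 96.0% to 96.6% of values up to 50 reads lay within 0.05 of a whole number. Their sum was taken as depth (counting error only).

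Values were log2(FPKM + 1). Genes with FPKM of at least 1 in at least 3 of the 6 WT day 0 and day 3 columns were fitted with limma 3.58.1 (R 4.3.3, trended prior) on 8 groups of 3 libraries, with 16 residual and 4.16 prior degrees of freedom. Tests were two-sided, adjusted by Benjamini-Hochberg over the 12410 genes, threshold 0.05, for WT day 3 against day 0, KO day 3 against day 0 and the difference of both. Python 3.11.15 with matplotlib 3.10.9, scipy 1.17.1, numpy 2.4.6 and pandas 2.3.3 did the rest, and the fit was tested on simulated data.

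Genes named are Atf3, the 12 highest and 12 lowest changes that passed without overlap at a mean of at least 5 FPKM (predicted genes passed over), up to 6 passing members of each of 33 gene lists, or, with fewer than 2 passing, the most abundant one, and genes of the interaction under the same level rule. Other genes named in the text were chosen after their values were seen, list members that did not pass included. Some results that the rule would name are not reported here. The members and lists were chosen with earlier results of these data known. Alternatives were a pseudocount of 0.1, 3 other filters, the 6 or 12 libraries alone, a replicate block, TPM or equal-sum rescaling, limma-voom on recovered reads, and each library left out.

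Same-numbered WT libraries of days 0 and 3 had correlations of their deviations from the group mean of -0.21, -0.36 and 0.24, so the numbers were not taken to pair them. Pairing between WT and KO libraries was not tested.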

Additional observations from a re-analysis of the deposited data

Results flagged for a closer look

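Nkx6-3 was noted because its step from day 0 to day 3 differed between WT and KO cells by the interaction test: the WT step minus the KO step was -0.973 on the log2(FPKM + 1) scale (limma adjusted p = 0.00724). With 1 WT or KO library left out in turn the difference was -1.06 to -0.88 and the adjusted p 0.00187 to 0.0424. It was 0.0354 with equal sums, 0.0184 with a filter over all 24 libraries and 0.000476 with no filter. It was 1 with a pseudocount of 0.1 (difference -1.42), after TPM rescaling (-0.94), in the fit of 12 libraries (-0.97) and with limma-voom (-1.13). The levels were at most 3.03 FPKM, and the gene passed the filter only through the WT day 0 libraries, the group in which it is high.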

How the results depend on the processing

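Of 152 passing genes named by the rule, 103 passed in every one of the 16 alternatives that tested them. Rescaling to TPM, whose sums hold the rRNA-type genes, ended 43 of 151 calls. Equal sums without rRNA-type genes ended 9 of 152. The 3624 WT calls (1477 higher, 2147 lower) became 1433 (662 and 771) after rescaling to TPM and 1948 (558 and 1390) with a filter of 5 FPKM. The other fits gave between 3343 (equal sums without rRNA-type genes) and 5102 (12 libraries of days 0 and 3). Leaving out 1 WT library gave 2661 to 3648. For changes of at least 1 on the log2 scale (1662), the stricter filter gave 920 (320 higher, 600 lower), and leaving out 1 library gave 1525 to 1883. The KO count of 3945 was 6071 with its 6 libraries alone, 1574 after TPM rescaling, 2162 with the stricter filter, and 2901 to 3656 with 1 KO library left out. The interaction count of 1 was 0 with 12 libraries, a pseudocount of 0.1, TPM rescaling, the stricter filter or limma-voom, 2 with a filter over all 24 libraries, 5 with no filter, 1 without any 1 WT library, and 1 to 2 with 1 KO library left out (2 without KO day 0 replicate 1, a setting chosen after seeing the data). With a replicate block, 3417 genes passed (1395 higher, 2022 lower), 1642 of them with a change of at least 1, although the numbers did not pair the libraries. No named gene that passed turned its direction, whereas the signs of Id1, Ier3, Axin2, Dnmt3l, Zscan10 and Rpl10, which did not pass, turned in some fits. Rpl10 did so without day 3 replicate 2 (-0.0027). Equal-sum rescaling moved the median of all genes from -0.08 to 0.03, and the share of calls that were higher from 40.8% to 47.8%. The cause of these shifts was not tested. Depth limits genes near 1 FPKM. It also limits genes with few reads at a higher FPKM, such as Mir6381, which rested on at most 24 reads in a WT day 3 library.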

Other observations

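Some genes of antigen presentation by MHC class I, which display peptides on the cell surface, rose and others did not. They were chosen after their values were seen and form no tested list. H2-K1 stood at 11.6, 10.7 and 9.38 FPKM on day 0 and at 26.4, 39.6 and 27.4 FPKM on day 3 (log2 fold change 1.45, limma adjusted p = 2.48e-05). H2-D1 gave 7.59, 6.26 and 5.63 FPKM before and 16.9, 21.8 and 19.2 FPKM after (1.44), and the non-classical H2-Q4 0.834, 0.785 and 0.768 FPKM before and 10.2, 12.2 and 11.3 FPKM after (2.77, limma adjusted p = 2.34e-10). The days did not overlap for these heavy chain genes. The peptide transporter genes Tap1 (2.02) and Tap2 (1.76) and the immunoproteasome genes Psmb8 (2.25) and Psmb9 (1.28) rose as well. B2m, the shared light chain, rose by 1.41 (limma adjusted p = 0.0165), a call that ended after TPM rescaling and without day 0 replicate 1, day 3 replicate 1 or day 3 replicate 3. Tapbp did not pass (0.43, limma adjusted p = 0.0684), and without day 0 replicate 1 it did (0.57, limma adjusted p = 0.03).

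H2-M5, a class Ib gene of the same complex, went the other way, from 23.8, 23.9 and 29.7 FPKM to 0.273, 0.423 and 0.611 FPKM (-4.22). Nlrc5, a transactivator of class I genes, was under the filter, at 0, 0.0277 and 0.0469 FPKM on day 0 and 0.439, 0.246 and 0.251 FPKM on day 3. The interferon-related gene Cd274 was not tested, with at most 1.26 FPKM, and Irf1 did not pass (0.45, limma adjusted p = 0.129).

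Parent genes of the ribosomal protein copies that fell were also read after the values were seen. Rpl10 was at 494, 488 and 456 FPKM on day 0 and at 463, 527 and 493 FPKM on day 3 (0.04, limma adjusted p = 0.921), beside a change of -4.39 for Rpl10l. Rpl39 (0.15) and Rps4x (0.26) did not pass either, beside -2.69 for Rpl39l and -1.25 for Rps4l.

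Enpp2, which encodes the lysophospholipase autotaxin, was high on day 3 alone among the days before and after it: 0.250, 0.326 and 0.414 FPKM on day 0, 10.1, 9.07 and 16.4 FPKM on day 3 (3.23, limma adjusted p = 8.81e-12), and a mean of 0.333 FPKM on day 6.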
